A study of Mus musculus with 12 samples.

Results

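Across 12 mouse brain cell libraries, 252 of 55421 genes separated the 3 libraries of astrocyte-derived spheres from the other 9. These genes were chosen by their measured values. A gene belonged to the set if its lowest level in the spheres was at least 2 times its highest level in the other 9 libraries, or if its highest level in the spheres was no more than the lowest of the other 9 divided by 2. A level of 5 FPKM (fragments per kilobase of gene length, scaled to sequencing depth) or more was required in every library on the higher side. By this rule 238 genes were higher in the spheres and 14 were lower. Because the rule used the spheres against all other groups, those differences are a description and carry no test.

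The 12 libraries fell into groups of 3, all from brain of C57BL/6 mice. AST were mouse astrocytes at 0 days of incubation, the negative control. A-iSC were cells induced from such astrocytes over 5 days of incubation in 3D spheres. P56-NSC and P0-NSC were neural progenitor cells (NPCs) taken from the brain, the positive controls. The P in their names is read as postnatal day, so P56-NSC came from adult and P0-NSC from newborn mice. A comparison between these progenitor groups is therefore also one between ages. Libraries were made with the NEBNext Ultra RNA kit from 3 µg of Trizol-extracted RNA per sample, and this kit does not mark the strand of the RNA. Whether the libraries of a group are separate cultures or animals is not stated in the labels. A p-value here is therefore about the spread between libraries within groups, pooled over all groups with A-iSC included, and that spread may be technical.

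Of the 238 higher members, 48 stood on 1 of 4 lists of microglia, macrophage, myeloid receptor and complement genes, 138 stood on none of the 44 gene lists read here, and no lower member stood on any. Microglia and macrophages are the phagocytes of brain and other tissues. They carry receptors for antibodies, lipids and microbial products on their surface, signal through Tyrobp and Syk, release complement C1q, and break down what they engulf in lysosomes. In disease and development microglia can enter an activated state with high Apoe, Spp1, Clec7a and Gpnmb. Astrocytes have a reactive state of their own, marked by Gfap, Serpina3n, Lcn2, C3 and C4b. Type I and type II interferons raise a further program of antiviral, GTPase and MHC class I genes in most cell types.

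Marker genes were read in every library before the members were described. The summed level of 30 microglia and macrophage identity markers was 7271 to 10215 FPKM in A-iSC, 767 to 883 in AST, 274 to 347 in P0-NSC and 1479 to 1604 in P56-NSC. At most 1 of the 30 was at 0 in any library (Siglech, in AST 2, AST 3 and A-iSC 2). The 22 astrocyte markers summed to 508 to 531 FPKM in AST, 2364 to 4081 in A-iSC and 7608 to 8329 in P56-NSC, so the group labelled as astrocytes had the lowest sum (593 to 659 in P0-NSC). Neuron markers summed to 1897 to 2499.8 FPKM in P56-NSC and 1540.0 to 1845 in P0-NSC, against 139.6 to 184 in AST and 134 to 154 in A-iSC. P56-NSC stood apart by oligodendrocyte lineage markers (12955 to 14850.2 FPKM, against at most 243 elsewhere), and AST by fibroblast and mural cell markers (2009.7 to 2431 FPKM, against 51.6 to 85.5 in A-iSC). Choroid plexus genes reached 1735 to 3549 FPKM in P56-NSC and 780.5 to 3905 in P0-NSC, and red blood cell genes 360.0 to 565 and 163 to 338, while both lists stayed below 10 FPKM in AST and A-iSC. In bulk RNA, more cells of a type and more RNA per cell cannot be told apart. The libraries held 17077780 to 24452419 reads. A single read on 1 kb of gene corresponds to 0.0343 to 0.0623 FPKM at that depth. The libraries least like the others of their groups were A-iSC 3 and AST 2: the SD of log2 differences between A-iSC 3 and its 2 group mates was 0.446 and 0.486, against 0.239 between those 2. AST 2 differed from its mates by 0.338 and 0.339, against 0.185.

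**Figure D1:**
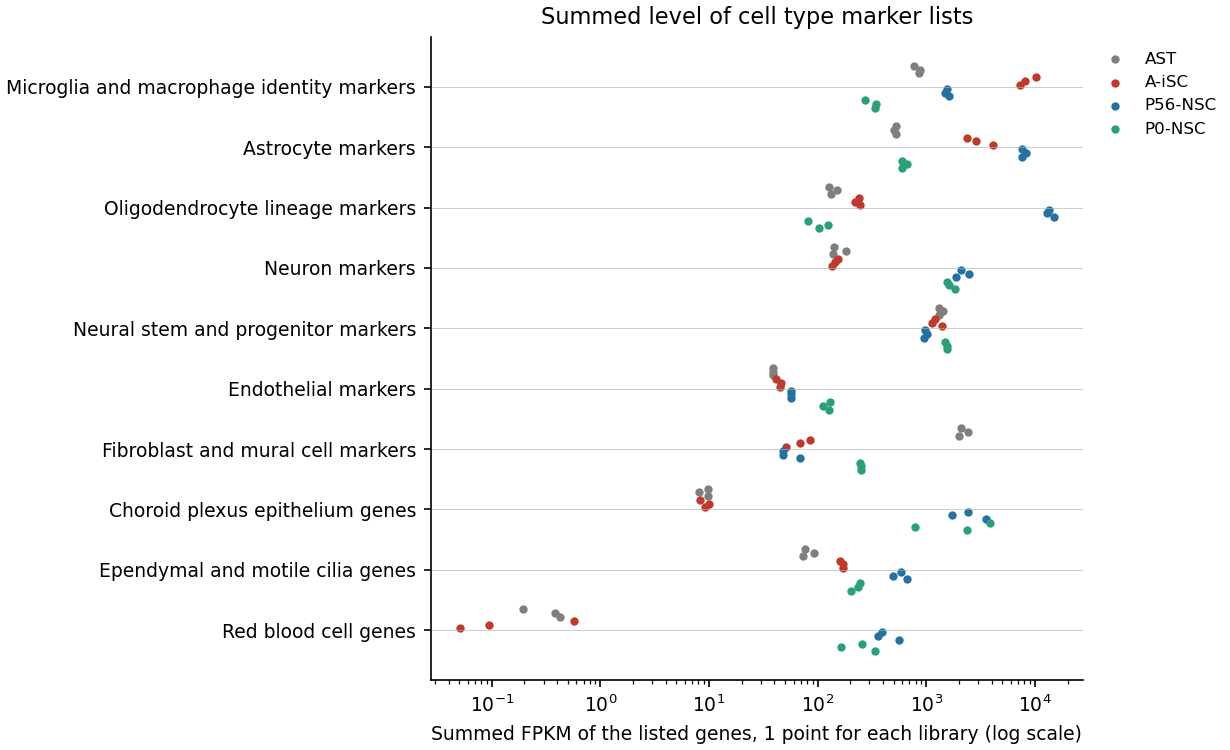
Summed FPKM of marker gene lists (log axis) in each of the 12 libraries, 1 point per library and 1 colour per group. Microglia and macrophage identity markers were highest in the 3 A-iSC libraries (7271 to 10215 FPKM), oligodendrocyte markers in P56-NSC (12955 to 14850.2 FPKM) and fibroblast markers in AST (2009.7 to 2431 FPKM).

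The higher members formed a small share of the genes that A-iSC expressed and a larger share of its RNA. Of 6734 genes at 5 FPKM or more in all 3 A-iSC libraries, 238 met the rule (3.53%), and of 4844 genes at that level in all other 9 libraries, 14 met the rule for lower genes (0.289%). The same rule set around another group gave 670 genes for AST (533 higher and 137 lower), 856 for P56-NSC (757 and 99) and 679 for P0-NSC (440 and 239). A-iSC thus had the fewest genes of its own in both directions. Its 238 higher members took 7.75% to 9.14% of the reads in A-iSC, 0.915% to 0.972% in AST, 1.12% to 1.2% in P56-NSC and 0.455% to 0.509% in P0-NSC. With A-iSC 3 left out the rule gave 311 higher and 24 lower genes, and with A-iSC 3 and AST 2 both left out 340 and 40. Leaving out libraries can only widen a margin, so no member is lost that way.

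For each higher member the margin was taken as its lowest A-iSC level over its highest level in the other 9 libraries, with values under 0.1 FPKM set to 0.1. The margins had a median of 3.62 and ranged from 2.0 to 197. A margin of 10 or more was found for 14 genes and one of 5 or more for 59. The library that came nearest to the spheres was an AST library for 118 members, a P56-NSC library for 105 and a P0-NSC library for 15. P0-NSC had the lowest group mean for 159 of the 238. Ratios of group means had a median of 8.07 over AST, 7.45 over P56-NSC and 18.2 over P0-NSC. Just inside the threshold lay Slc31a2 (margin 2.0), Il13ra1 (2.01) and Itgam (2.02), and just outside it Arhgdib (1.997, below 2), Mfsd12 (1.99) and Dnase1l1 (1.95). On the lower side Stk39 (2.0), Serp2 (2.01) and Ncam1 (2.01) lay just inside, and Amot (1.98), Lhx2 (1.95) and Slc9a3r2 (1.94) just outside.

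**Figure D2:**
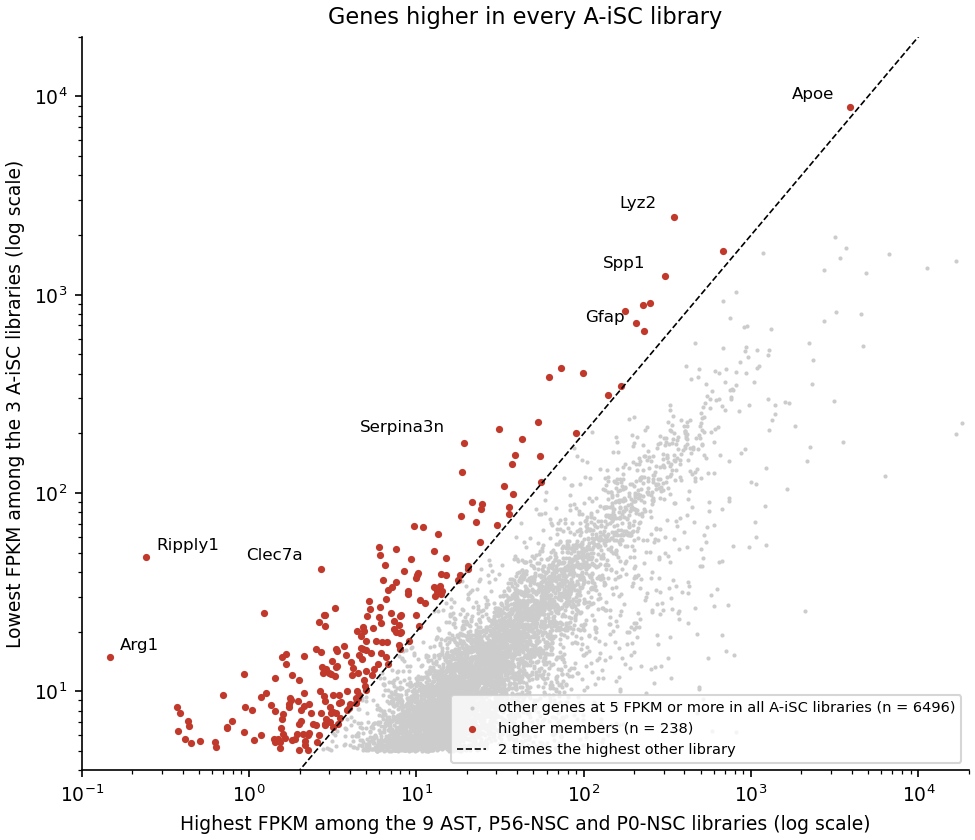
Lowest FPKM among the 3 A-iSC libraries against the highest FPKM among the other 9, on log axes, 1 point per gene at 5 FPKM or more in all A-iSC libraries. The 238 higher members (red) lie on or above the dashed line at 2 times the highest other library, from Ripply1 and Arg1 at the far left to Apoe at the top right, and the other genes lie below it (grey).

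A few members were close to silent in every library but those of the spheres. Ripply1, a corepressor adaptor that acts in somite segmentation, had the widest margin (197). It was at 47.8, 71.8 and 84.4 FPKM in A-iSC, 0.221, 0.243 and 0.0664 in AST, 0.162, 0.169 and 0.0895 in P0-NSC and 0.142, 0.0768 and 0.0749 in P56-NSC. Its levels outside the spheres amount to a handful of reads per library. Arg1, the arginase of alternatively activated macrophages, came next with 15, 21.1 and 15.7 FPKM in A-iSC, 0.0268, 0.0885 and 0.0483 in AST, 0.0392, 0.0771 and 0.147 in P0-NSC and 0.0259, 0.0559 and 0.0545 in P56-NSC (margin 102). For both genes the other 3 groups overlapped, and only A-iSC lay apart, as the rule required. Altogether 24 higher members had a mean under 1 FPKM in all 3 other groups. Glycam1, a mucin-like ligand of L-selectin, was at 8.86, 10.1 and 8.32 FPKM in A-iSC and 0.017 to 0.37 in the other 9 libraries. Siglec1, the sialic acid receptor of macrophages, was at 8.64, 7.82 and 9.12 FPKM against 0.0726 to 0.384. Atp6v0d2, a subunit of the proton pump of osteoclasts and macrophages, was at 10.8, 8.36 and 6.67 FPKM and was listed at 0 in all 3 P56-NSC libraries. These genes differ in their usual cell type, from lymphoid tissue (Glycam1) to myeloid cells (Siglec1, Arg1).

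**Figure D3:**
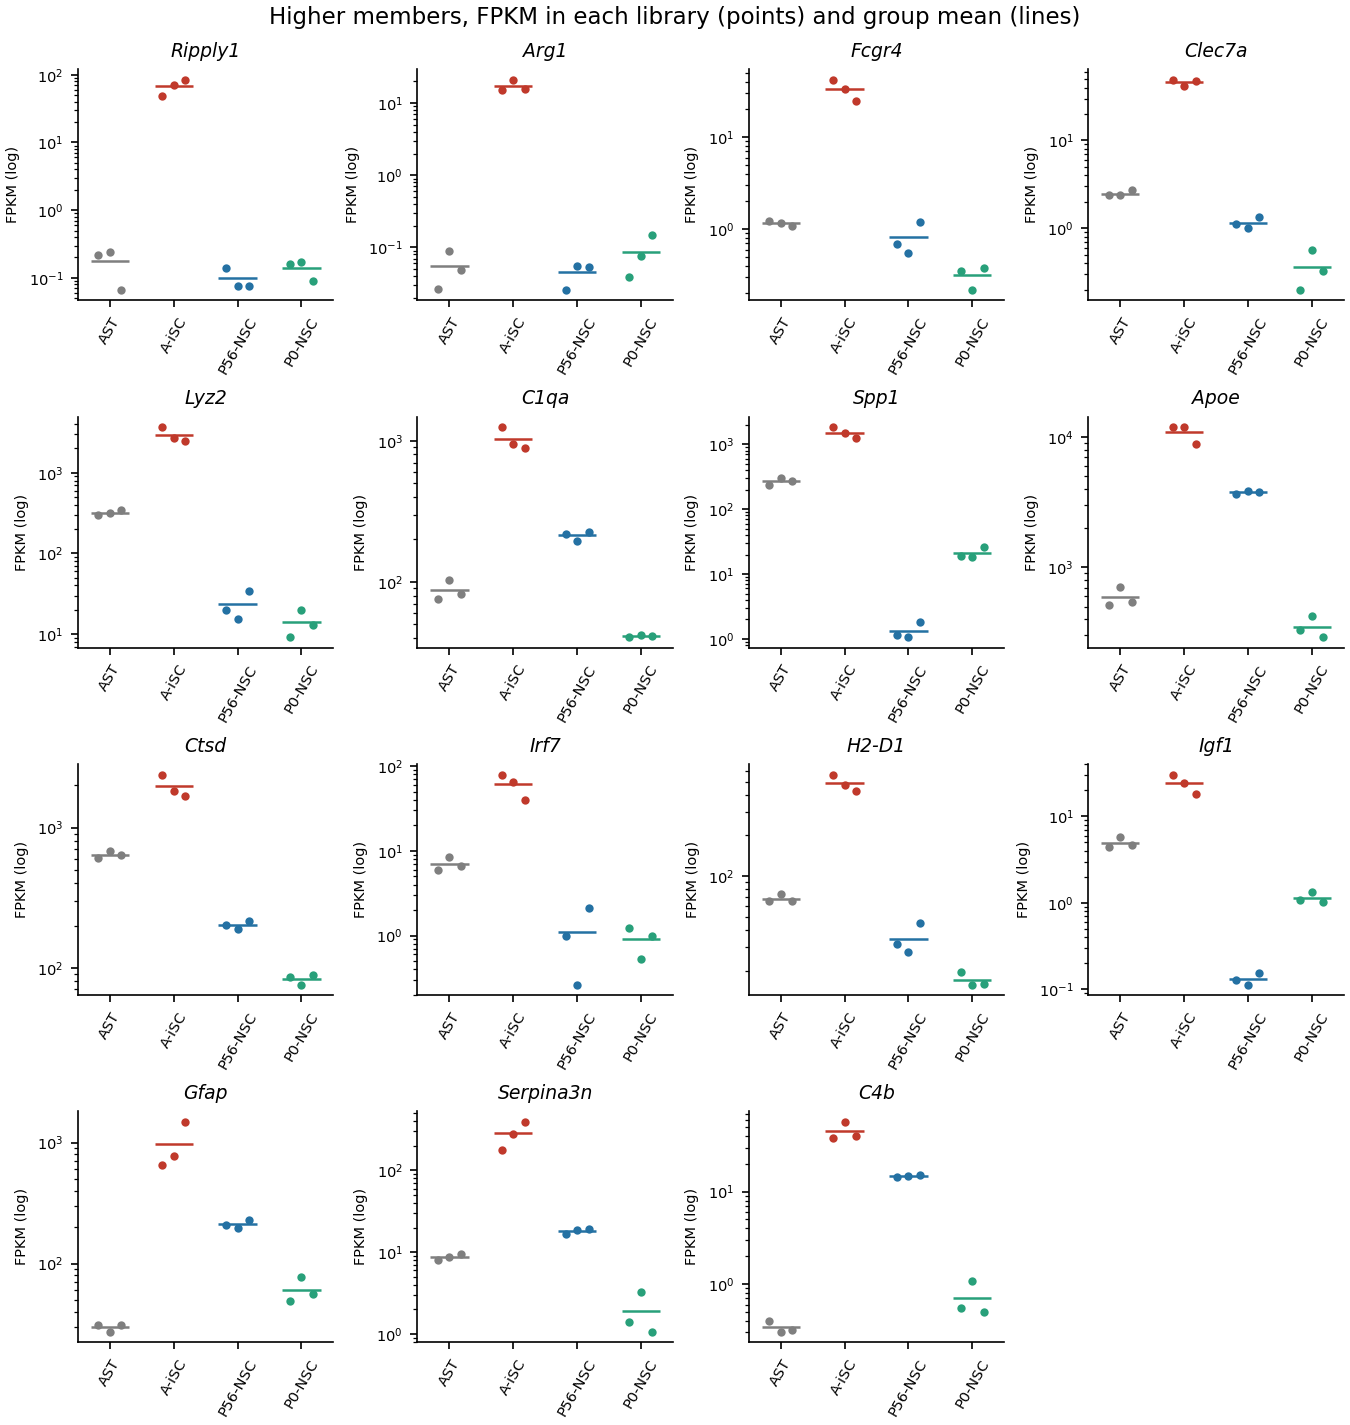
FPKM (log axis) of 15 higher members in each of the 12 libraries, 1 point per library and a line at each group's mean, with values under 0.01 FPKM drawn at 0.01. In every panel the 3 A-iSC points lie above the other 9, by margins from 2.27 (Apoe) to 197 (Ripply1).

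Of 30 microglia and macrophage identity markers tested, 16 were higher members. For comparison, 20 of the list were higher in A-iSC than in each other group at a limma adjusted p below 0.05, a call that 7.04% of all 15747 genes tested received (the opposite call, lower than each other group, went to 3.82%). The list's median log2 differences of A-iSC from AST, P56-NSC and P0-NSC were 2.91, 1.47 and 3.16, where all genes tested had 0, 0.03 and -0.01. Since the rule used the same contrasts, these counts and those of every list below describe the set and support nothing further. They are to be read beside the shares of all genes tested. Those shares were 1.51% for higher members, 7.04% for the higher call and 3.82% for the lower call. Lyz2, the lysozyme of macrophages, was at 3672, 2724 and 2475 FPKM in A-iSC, 301, 316 and 345 in AST, 9.13, 20.1 and 12.9 in P0-NSC and 20.1, 15.2 and 34.5 in P56-NSC. AST was the nearest group, and both NPC groups were lower still. Tyrobp, the adaptor that couples many myeloid receptors to Syk, was at 584, 472 and 385 FPKM in A-iSC, 40.7, 62 and 42.1 in AST, 18.8, 28.3 and 26.2 in P0-NSC and 52.3, 50.6 and 49.8 in P56-NSC. That the spheres did not overlap another group follows from the rule. Aif1 (Iba1, an actin-binding protein used to stain microglia) was at 47.7, 41.6 and 35.6 FPKM in A-iSC and 2.6 to 7.52 elsewhere. The transcription factors of the lineage were members too. Irf8 was at 19.1, 18.2 and 16.4 FPKM in A-iSC against 0.849 to 3.32, and Spi1, which encodes PU.1, at 55.2, 41.9 and 23.7 against 2.5 to 5.99 (Aif1 and Spi1 were chosen for naming after their values were seen).

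All 30 identity markers had a higher mean in A-iSC than in AST, but only 22 had a higher mean than in P56-NSC. For 14 of the 16 members on the list, P56-NSC was the highest of the other groups. Among the markers that were not members are 3 that are usually tied to resting microglia (they were picked after their values were seen). P2ry12, a purine receptor of resting microglia, was at 7.19, 5.48 and 9.23 FPKM in A-iSC and 60.3, 59.98 and 60.3 in P56-NSC. Tmem119, a membrane protein that sets microglia apart from blood-derived macrophages, was at 18.4, 15.3 and 16.6 FPKM in A-iSC and 54.2, 49.5 and 52.9 in P56-NSC. Siglech, a lectin of microglia, was at 0.0733, 0 and 0.0441 FPKM in A-iSC and 18.6, 19.2 and 17.6 in P56-NSC. For these 3 genes the spheres lay below P56-NSC with no overlap, whereas Csf1r, the receptor that microglia need to survive, overlapped between the 2 groups at 104, 83.9 and 74.3 and 77.1, 77.3 and 74.2 FPKM. Fcrls, another gene of the list tied to resting microglia, went the other way: it was a higher member and so lay above P56-NSC. The part that the number of microglia or macrophages in each sample plays in these levels was not tested.

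Genes of the activated myeloid state supplied 17 members out of 37 tested, with 25 called higher than each other group. Of all genes tested, 1.51% were higher members and 7.04% had this call. The list's median log2 differences were 1.67, 2.35 and 3.01 from AST, P56-NSC and P0-NSC. Clec7a, the beta-glucan receptor dectin-1, was at 49.2, 41.6 and 47.3 FPKM in A-iSC, 2.4, 2.37 and 2.69 in AST, 0.199, 0.56 and 0.33 in P0-NSC and 1.11, 1.02 and 1.33 in P56-NSC. Gpnmb, a glycoprotein of lysosome-rich macrophages, was at 187, 151 and 127 FPKM in A-iSC, 16.2, 14.7 and 18.6 in AST, 0.376, 0.949 and 0.502 in P0-NSC and 0.884, 0.603 and 0.615 in P56-NSC. Spp1, the secreted phosphoprotein osteopontin, was at 1847, 1478 and 1242 FPKM in A-iSC, 235, 307 and 268 in AST, 19, 18.3 and 26.1 in P0-NSC and 1.15, 1.06 and 1.81 in P56-NSC. For all 3, AST was the nearest group and P56-NSC was lower than AST. AST was the nearest group for 14 of the 17 members on this list, the reverse of the identity markers. Igf1, the growth factor that phagocytes release, was at 30.5, 24.2 and 18 FPKM in A-iSC, 4.48, 5.75 and 4.62 in AST, 1.09, 1.33 and 1.02 in P0-NSC and 0.128, 0.113 and 0.153 in P56-NSC. Mmp12, the elastase of macrophages, was at 7.16, 7.05 and 5.26 FPKM in A-iSC against 0 to 0.634 elsewhere. Ms4a7, a membrane protein of border-associated and other macrophages, was at 33.7, 22.5 and 26.2 against 0.0839 to 2.6 FPKM. It belongs to a gene family of near copies, whose reads the authors' counting may have divided between members. Cybb, the catalytic subunit of the phagocyte NADPH oxidase, was at 31.2, 26.3 and 36.2 against 0.118 to 3.27 FPKM.

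The complement list had 10 members out of 19 tested, with median log2 differences of 1.96, 1.53 and 2.71. It also held 2 genes called lower in A-iSC than in each other group. The 3 chains of C1q, the recognition molecule of the classical pathway, lie side by side on chromosome 4 (136880129 to 136898803, GRCm38). C1qa was at 1248, 948 and 891 FPKM in A-iSC, 76.3, 103 and 81.8 in AST, 40.6, 42.3 and 41.6 in P0-NSC and 218, 196 and 226 in P56-NSC. C1qb was at 1147, 1025 and 723 FPKM in A-iSC and 187, 178 and 205 in P56-NSC, its nearest group, and C1qc at 587, 484 and 405 and 93.3, 90.5 and 98.6. The 3 chains kept the same order of groups: A-iSC highest, then P56-NSC, AST and P0-NSC. Downstream components behaved less uniformly. C4b, a component of the classical pathway, was at 38.5, 56.8 and 40.4 FPKM in A-iSC, 0.398, 0.303 and 0.321 in AST, 0.553, 1.07 and 0.497 in P0-NSC and 14.5, 14.7 and 15.1 in P56-NSC. It was close to silent in AST and P0-NSC, and P56-NSC was the nearest group. C4a is a near copy of it, so the division of reads is uncertain. C3, the central component, was at 13.3, 17.7 and 22.8 FPKM in A-iSC against 0.113 to 2.74 elsewhere. The receptor for its fragment C3a, C3ar1, was at 68.3, 57.7 and 48.5 against 0.498 to 6.05 FPKM.

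Receptors for antibodies, lectin ligands and Toll-like receptor ligands made up 15 members of 37 tested, and 30 of the list were called higher than each other group. Their median log2 differences were 1.85, 1.88 and 2.26. Fcgr4, an activating IgG receptor, was at 42.1, 33.7 and 24.8 FPKM in A-iSC, 1.23, 1.18 and 1.07 in AST, 0.348, 0.219 and 0.376 in P0-NSC and 0.688, 0.546 and 1.21 in P56-NSC. The highest library outside the spheres was an AST library. Fcgr4, Fcgr3, Fcgr2b and the shared signalling chain Fcer1g sit within 1 stretch of chromosome 1 (170958617 to 171234365), and all 4 were members. The Fcgr genes resemble each other closely, so the division of reads between them is uncertain. Cd36, a scavenger receptor for lipids, was at 13.2, 10.2 and 9.87 FPKM in A-iSC against 0.139 to 2.11. Cd84, a homophilic adhesion receptor of leukocytes, was at 20.5, 16.3 and 19.2 against 0.467 to 2.5 FPKM. Csf2rb and Csf2rb2, the paired beta chains of the GM-CSF and IL-3 receptors, were at 8.42, 6.57 and 7.65 and at 14.5, 13 and 12.3 FPKM in A-iSC, and reads of these near copies may have been mixed.

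Interferon-stimulated genes gave 15 members of 45 tested. In all, 34 of the list were called higher than each other group, and the median log2 differences were 1.36, 2.63 and 3.24. The list's summed level overlapped between A-iSC (1779 to 2658 FPKM) and AST (1435 to 2033), and AST 2 lay above A-iSC 3. It was 152 to 244 FPKM in P56-NSC and 69 to 98.4 in P0-NSC. The 15 members made up 540 to 649 FPKM of the sum in A-iSC. AST had the highest mean of the other groups for all 15 members, and their median ratio of A-iSC over AST was 4.73. Irf7, the transcription factor that amplifies type I interferon, was at 79.7, 65 and 40.3 FPKM in A-iSC, 5.92, 8.41 and 6.72 in AST, 1.24, 0.528 and 1.0 in P0-NSC and 0.992, 0.264 and 2.09 in P56-NSC. The spheres lay above all other groups, as the rule required, and AST lay above both progenitor groups. Zbp1, a sensor of nucleic acids, was at 17.7, 13 and 8.34 FPKM in A-iSC against 0.0353 to 0.95. Oasl2, of the oligoadenylate synthetase family, was at 33.2, 30.4 and 25.9 against 0.313 to 5.25 FPKM. Gbp2, an interferon-induced GTPase, was at 28.7, 34.9 and 39 against 0.614 to 5.22 FPKM. The levels in A-iSC 3 were below those in A-iSC 1 for Irf7, but 7 of the 15 members had their highest level in each of these 2 libraries. Microglia and macrophages express interferon-stimulated genes as other cells do, and the identity marker sum was highest in the same 3 libraries. Its part in the levels of these genes was not tested.

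The promoters of these genes were searched for the interferon-stimulated response element, because these members were high together and this element is the textbook binding site of the interferon-activated complex. The letters GAAANNGAAA were looked for on both strands in the 250 bases before each start site of the RefSeq promoter table (GRCm38.p6), which held 195 of the 252 members (184 higher and 11 lower). The element was found in 2.98% of all 32851 promoters, in 11.5% of the 218 promoters of higher members, in 53.8% of the 13 promoters of interferon-list members and in none of the 19 of lower members. Interferon-stimulated genes are known for this element, so the share on their list says nothing about the spheres. At a share of 2.98%, 19 promoters are too few to read their lack of it. A match of letters is a description and not a bound site. The windows below, 100 bases each and 5′ to 3′ on the gene's strand, show the element in capitals in the 3 neighbouring Gbp genes (chr3:142530236-142530335, chr3:142559944-142560043 and chr3:142620563-142620662, plus strand), in Ifit1 (chr19:34640765-34640864, plus), Ifit3b (chr19:34607749-34607848, plus), Oas1a (chr5:120907526-120907625, minus) and Rsad2 (chr12:26456493-26456592, minus), with overlapping matches run together.
Gbp7: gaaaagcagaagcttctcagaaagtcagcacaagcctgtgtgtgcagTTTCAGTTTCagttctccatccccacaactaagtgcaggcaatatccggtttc
Gbp3: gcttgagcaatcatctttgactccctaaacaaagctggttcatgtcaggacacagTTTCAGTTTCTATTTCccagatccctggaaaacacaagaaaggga
Gbp2: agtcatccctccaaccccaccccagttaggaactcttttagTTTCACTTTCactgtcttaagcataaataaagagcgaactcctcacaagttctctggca
Ifit1: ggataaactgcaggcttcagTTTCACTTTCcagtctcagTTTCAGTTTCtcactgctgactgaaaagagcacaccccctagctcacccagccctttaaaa
Ifit3b: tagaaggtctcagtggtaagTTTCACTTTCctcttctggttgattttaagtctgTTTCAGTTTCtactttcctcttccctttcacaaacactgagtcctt
Oas1a: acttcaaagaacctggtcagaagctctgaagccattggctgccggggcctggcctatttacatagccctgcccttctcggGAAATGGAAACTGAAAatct
Rsad2: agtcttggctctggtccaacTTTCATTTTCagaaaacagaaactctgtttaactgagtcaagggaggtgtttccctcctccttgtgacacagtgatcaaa
Except in Oas1a the element reads as its reverse complement, and Ifit1 and Ifit3b each hold it at 2 separate places. The levels that go with these windows were as follows. Gbp7 was at 5.68, 5.69 and 7.93 FPKM in A-iSC against 0.375 to 1.81 elsewhere, and Gbp3 at 36.8, 32.2 and 31.2 against 1.09 to 8.93. Ifit1, which binds foreign RNA, was at 75.7, 60.8 and 56.6 against 0.155 to 23.9 FPKM, and Ifit3b at 56.1, 51 and 58.8 against 0.0515 to 12.7. Rsad2 (viperin) was at 7.62, 5.72 and 10.3 against 0.269 to 1.49 FPKM, and Oas1a at 31.6, 21.4 and 20.2 against 0.165 to 4.84. These 6 genes were named because they hold the element, and reads within the Gbp, Ifit and Oas families may be divided between near copies. The other motifs searched differed by smaller factors from their share of all promoters: the STAT site TTCNNNGAA (11.5% of higher-member promoters against 7.02% of all), the PU.1 site GAGGAAGT (5.96% against 2.44%), the CEBP site TTGCNNAA (11.5% against 9.56%) and the NF-kB site (0.917% against 0.356%).

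Antigen presentation genes had 7 members of 23 tested, and 15 were called higher than each other group, with median log2 differences of 1.18, 1.86 and 2.38. H2-D1, a classical MHC class I heavy chain, was at 564, 476 and 428 FPKM in A-iSC, 65.8, 73.4 and 65.2 in AST, 19.6, 15.8 and 16 in P0-NSC and 31.7, 27.3 and 44.8 in P56-NSC. H2-K1, the other classical chain measured, was at 225, 188 and 239 FPKM against 7.03 to 43. H2-T23 and H2-Q6, of the non-classical class I genes, were at 80.2, 63.4 and 52.4 and at 12.2, 10.2 and 9.07 FPKM, against at most 7.59 and 1.78 elsewhere. Psmb8 and Psmb9, subunits of the immunoproteasome, were members as well (with margins of 3.13 and 2.91, both named after their values were seen). Class I genes are near copies of each other, so their separate levels are uncertain.

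Lysosome genes gave 14 members of 40 tested, and 22 were called higher than each other group, with median log2 differences of 0.79, 1.34 and 2.29. Their margins were narrower than those of the surface receptors, with a median of 2.43 against 5.29 for the Fc, Toll-like and lectin receptors. Ctsd, an aspartic protease of the lysosome, was at 2392, 1839 and 1671 FPKM in A-iSC, 612, 677 and 639 in AST, 85.7, 75.8 and 88.1 in P0-NSC and 203, 189.7 and 217 in P56-NSC. Ctsb, a cysteine protease, was at 1055, 847 and 827 FPKM in A-iSC, 169, 163 and 177 in AST, 60.4, 62.7 and 67.7 in P0-NSC and 102, 107 and 105 in P56-NSC. Ctss, the cathepsin that trims the invariant chain in antigen-presenting cells, was at 1046, 906 and 982 FPKM in A-iSC, 67.3, 80.04 and 78.2 in AST, 22.6, 30.7 and 30.3 in P0-NSC and 238, 215 and 248 in P56-NSC. Ctsd and Ctsb had AST as their nearest group and Ctss had P56-NSC. Cd68, a lysosomal membrane glycoprotein of macrophages, was at 311, 233 and 140.2 FPKM in A-iSC against 5.88 to 37. Lysosome genes are abundant in phagocytes, and the part of the identity marker sum given above in these levels was not tested either.

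The promoters of lysosome members were searched for the CLEAR E-box, the palindrome-centred site that the lysosome regulator TFEB is known to bind. The search was made to find which of these promoters hold the site's letters. GTCACGTG occurred in 1.85% of all promoters, 2.75% of those of higher members and 28.6% of the 14 promoters of lysosome members, in Cln3, Ctsa, Ctsd and Lgmn. It also occurred in 10.5% of the promoters of lower members, which were those of 1 gene. The windows, with the match or its reverse complement in capitals, come from Cln3 (chr7:126583280-126583379, minus strand), Ctsa (chr2:164833673-164833772, plus), Ctsd (chr7:142387898-142388077, minus) and Lgmn (chr12:102439093-102439192, minus) in GRCm38.p6.
Cln3: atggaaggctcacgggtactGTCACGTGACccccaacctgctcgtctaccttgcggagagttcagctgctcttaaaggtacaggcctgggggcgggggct
Ctsa: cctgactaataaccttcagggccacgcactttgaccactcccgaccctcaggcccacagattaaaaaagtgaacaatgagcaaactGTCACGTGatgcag
Ctsd: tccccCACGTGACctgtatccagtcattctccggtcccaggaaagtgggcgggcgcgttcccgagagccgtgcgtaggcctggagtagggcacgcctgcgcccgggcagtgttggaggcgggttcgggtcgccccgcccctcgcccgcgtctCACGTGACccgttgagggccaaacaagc
Lgmn: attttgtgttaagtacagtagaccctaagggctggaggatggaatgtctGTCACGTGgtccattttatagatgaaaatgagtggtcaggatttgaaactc
Cln3, a lysosomal membrane protein, was at 13.9, 13 and 9.25 FPKM in A-iSC against 1.66 to 4.45 elsewhere. Ctsa, the protective protein of lysosomal glycosidases, was at 192, 166 and 113 against 18.6 to 55.7 FPKM, and Lgmn, an asparaginyl protease, at 371, 314 and 351 against 52.3 to 139. These 3 genes were named because of the match in their promoters.

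Lipid transport held the most abundant member. Apoe, the main lipid carrier of the brain, was at 11922, 11939 and 8835 FPKM in A-iSC, 509.9, 711 and 547 in AST, 333, 426 and 291 in P0-NSC and 3664, 3892 and 3777 in P56-NSC. Its margin of 2.27 was among the narrow ones, since its level in P56-NSC reached 3892 FPKM. Apoc1, the apolipoprotein gene next to Apoe on chromosome 7 (19689481 to 19699188 for the pair), was at 62.2, 52.9 and 38.6 FPKM in A-iSC against 0.401 to 10.1. Of 32 apolipoprotein and lipid handling genes tested, 8 were members and 14 were called higher than each other group, with median log2 differences of 1.22, 0.95 and 1.47. Apobec1, the enzyme that edits the messenger RNA of apolipoprotein B, was at 64.4, 55.8 and 46.7 FPKM against 1.14 to 9.31.

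Chemokine and cytokine genes were represented by 7 members of 42 tested, while 21 were called higher and 2 lower than each other group (median log2 differences 1.21, 0.79 and 1.88). The list's summed level in A-iSC (605 to 900 FPKM) overlapped with AST (608 to 642) and P56-NSC (596 to 628). In P0-NSC it was 153 to 166 FPKM. Ccl5, a chemokine for T cells and monocytes, was at 127, 91.5 and 43.5 FPKM in A-iSC against 0.25 to 6.45. Cxcl16, a chemokine that also acts as a scavenger receptor, was at 25.6, 21.9 and 16.9 against 0.577 to 3.71 FPKM. Osmr, the receptor subunit for oncostatin M, which astrocytes use in their reactive response, was at 5.77, 7.12 and 8.38 against 0.303 to 1.89 FPKM. Il13ra1, part of the receptor for IL-4 and IL-13, lay close to the threshold.

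Acute phase and reactive astrocyte genes gave 11 members of 33 tested, and C3, C4b, Osmr, Gbp2 and Psmb8 among them stood on other lists too. On this list 18 genes were called higher and 1 lower than each other group, and the median log2 differences were 0.96, 2.55 and 2.76. The summed level ran the other way against AST, with 1918 to 2178 FPKM in A-iSC, 2885 to 3812 in AST, 162 to 191 in P56-NSC and 216 to 277 in P0-NSC. Some abundant genes of the list were not members and were higher in AST (picked after their values were seen). Vim, the intermediate filament vimentin, was at 1243, 1131 and 741 FPKM in A-iSC and 1926, 2724 and 1908 in AST, and Timp1, an inhibitor of metalloproteases, at 52.4, 38.4 and 34.2 and 321, 423 and 309. Serpina3n, a secreted protease inhibitor of reactive astrocytes, was at 179, 283 and 393 FPKM in A-iSC, 8.09, 8.65 and 9.6 in AST, 1.4, 3.25 and 1.06 in P0-NSC and 16.8, 18.9 and 19.1 in P56-NSC. Gfap, the intermediate filament of astrocytes, was at 658, 769 and 1483 FPKM in A-iSC, 31.1, 27.2 and 31.3 in AST, 49.3, 77 and 55.6 in P0-NSC and 207, 198 and 228 in P56-NSC. Both genes were highest in A-iSC 3, and in neither did the spheres overlap another group, as the rule required. Lcn2, an iron-siderophore binding protein of the acute phase, was at 10.3, 11.6 and 7.05 FPKM against 0.0878 to 0.429. S1pr3, a receptor for sphingosine 1-phosphate, was nearly level across the spheres at 68.8, 67.9 and 73.8 FPKM against 1.95 to 9.72 elsewhere. A2m, the broad protease inhibitor alpha-2-macroglobulin, was at 62.5, 88.1 and 138 FPKM in A-iSC, 13.2, 8.79 and 13.5 in AST, 5.52, 4.03 and 4.57 in P0-NSC and 2.26, 2.48 and 2.13 in P56-NSC (named after its values were seen). A2m, like Gfap, was highest in A-iSC 3. Saa3, an acute phase apolipoprotein on none of the lists, was at 13.4, 11.7 and 9.55 FPKM against 0 to 0.70.

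The astrocyte markers as a list did not follow Gfap: it was the only member among 22 tested. The list's median log2 differences were 1.75, -1.75 and 1.88 from AST, P56-NSC and P0-NSC, which places the spheres above AST and P0-NSC and below P56-NSC. Aqp4, the water channel of astrocyte endfeet, missed membership at 69.3, 71.1 and 137 FPKM in A-iSC against 60.2, 64.2 and 61 in P56-NSC (picked after its values were seen).

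Neural stem and progenitor markers were tested as a list of 23. The list's median log2 differences were 0.30, 0.11 and -0.37, and its summed level was 1138 to 1391 FPKM in A-iSC, 1312 to 1433 in AST, 957 to 1019 in P56-NSC and 1479 to 1557 in P0-NSC. Nes (nestin), the filament by which neural stem cells are often recognised, was lower in A-iSC (72.2, 73.7 and 64.4 FPKM) than in AST (209, 183 and 195) and higher than in the progenitor groups (picked after its values were seen). The lists of oligodendrocyte, neuron, endothelial, fibroblast, choroid plexus, cilia, red blood cell, mitosis, DNA replication and extracellular matrix genes had no member.

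The lists of stress and metabolism held few members: 1 of 25 hypoxia genes, 1 of 17 glycolysis genes and 1 of 29 ER stress genes, where 1.51% of all genes tested were higher members. A single gene on a list of this size says nothing about the list. Egln3, an oxygen sensor that is itself raised by hypoxia, was at 19.98, 24.2 and 34.6 FPKM in A-iSC, 7.46, 7.45 and 7.5 in AST, 3.73, 4.52 and 4.05 in P0-NSC and 3.25, 3.35 and 4.36 in P56-NSC. Slc16a3, the lactate exporter of glycolytic cells, was at 6.27, 6.86 and 8.77 FPKM against 0.226 to 0.932 elsewhere. Both were highest in A-iSC 3. Atf3, a stress-induced transcription factor, was at 35.4, 33.3 and 21.4 against 1.63 to 10.4 FPKM. P2rx4, an ATP-gated channel of microglia, was at 11.5, 8.78 and 9.54 against 1.29 to 3.44 FPKM.

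Within 200000 bases of another higher member lay 70 of the 238, in 25 groups. How often as many other expressed genes lie that close was not tested. The groups include 5 Ms4a genes on chromosome 19 (11321039 to 11604849), 4 interferon-inducible Ifi genes on chromosome 1 (173630917 to 173913046), the Fcgr and C1q genes named above, and 5 genes of the MHC region on chromosome 17 (35170991 to 35557180). Some groups are families of related genes, such as the 3 Gbp and 3 Cd300 genes, and others pair genes of different families, such as Gfap with C1ql1 on chromosome 11 (102887336 to 102946688), Ctsd with Lsp1 and Rac2 with Cyth4. Where genes on opposite strands overlap, their reads cannot be told apart here, since the reads do not carry strand.

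The 3 sphere libraries differed in which members they held at the highest level. The coefficient of variation over the 3 libraries had a median of 16.7% among higher members. A-iSC 1 held the highest level for 168 of them, A-iSC 3 for 54 and A-iSC 2 for 16, and A-iSC 3 held the lowest for 145. Among the members on the identity list, 14 of 16 were highest in A-iSC 1 and 2 in A-iSC 3. On the acute phase list the order was different, with 1 of 11 highest in A-iSC 1, 2 in A-iSC 2 and 8 in A-iSC 3. Lyz2 and Gfap show it: in A-iSC 1, 2 and 3, Lyz2 stood at 3672, 2724 and 2475 FPKM and Gfap at 658, 769 and 1483. The share of reads from mitochondrial genes also differed between these libraries, at 7.03%, 5.49% and 3.05%. Whether these values are linked was not tested, and the libraries have no order.

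The 14 lower members were fewer, and none stood on any list, the list of 24 neuron markers included. Sema7a, a membrane-anchored semaphorin, had the widest margin (5.99), with 2.15, 1.77 and 2.3 FPKM in A-iSC, 37.1, 29.4 and 34.6 in AST, 21.8, 20.5 and 20.7 in P0-NSC and 13.8, 15 and 14 in P56-NSC. Smpd3, a neutral sphingomyelinase, was at 0.74, 0.691 and 1.08 FPKM in A-iSC, 6.98, 5.47 and 7.03 in AST, 9.09, 12.4 and 10.2 in P0-NSC and 5.73, 7.31 and 5.89 in P56-NSC. Tceal5, a small nuclear protein of the TCEAL family, was at 1.69, 1.47 and 3.1 FPKM in A-iSC, 28.9, 40.02 and 30.2 in AST, 10.9, 14.1 and 11.4 in P0-NSC and 16.1, 17 and 15.5 in P56-NSC. In all 3 the spheres lay below every other library, as the rule required, and the order of the other groups differed. Bex1, a small adaptor protein of the nervous system, was at 6.94, 5.99 and 5.91 FPKM in A-iSC, 46.9, 72.7 and 46.2 in AST, 31.2, 35.9 and 34.7 in P0-NSC and 14.9, 17 and 14.3 in P56-NSC. Ncs1, a neuronal calcium sensor, was at 9.24, 10.2 and 8.49 FPKM in A-iSC, 30.1, 31 and 30.9 in AST, 25.9, 29.6 and 29.8 in P0-NSC and 107, 121 and 102 in P56-NSC. The nearest group was P56-NSC for Bex1 and P0-NSC for Ncs1. Ncam1, the neural cell adhesion molecule, was at 12.4, 12.1 and 9.1 FPKM in A-iSC, 26.5, 29.6 and 26.4 in AST, 24.9, 26.4 and 27.6 in P0-NSC and 28.1, 34.4 and 25.8 in P56-NSC, which is a narrow margin at similar levels in the 3 other groups. Bok, a relative of the pro-apoptotic Bax and Bak, was at 3.15, 3.86 and 3.83 FPKM in A-iSC, 9.4, 10.1 and 9.98 in AST, 23.4, 26 and 25.4 in P0-NSC and 76.6, 73.9 and 75.1 in P56-NSC.

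The other lower members had margins between 2.0 and 3.36. Acot7, an acyl-CoA thioesterase abundant in neurons, was at 13.8, 14.4 and 9.1 FPKM in A-iSC against 42.5 to 66 elsewhere. Gstm7, a glutathione S-transferase from a family of near copies, was at 4.09, 3.91 and 3.77 against 12.3 to 47.5 FPKM. Both were highest in P56-NSC. Ndrg4, known from neurons and heart, was at 8.52, 7.95 and 9.02 against 24 to 72.1, and Svop, a transporter-like protein of synaptic vesicles, at 2.03, 2.36 and 1.99 against 5.07 to 15.2. Prr5, a subunit of the mTORC2 complex, was at 1.89, 1.34 and 1.54 against 6.34 to 14.6 FPKM. Together the 14 genes summed to 65.9 to 73.4 FPKM in A-iSC, 296 to 344 in AST, 288 to 319 in P0-NSC and 502 to 542 in P56-NSC. The neuron marker sum given above was also highest in P56-NSC, but similar in AST and A-iSC, and its part in these levels was not tested. The median ratio of group means over A-iSC was 3.37 for AST, 7.45 for P56-NSC and 5.06 for P0-NSC.

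**Figure D4:**
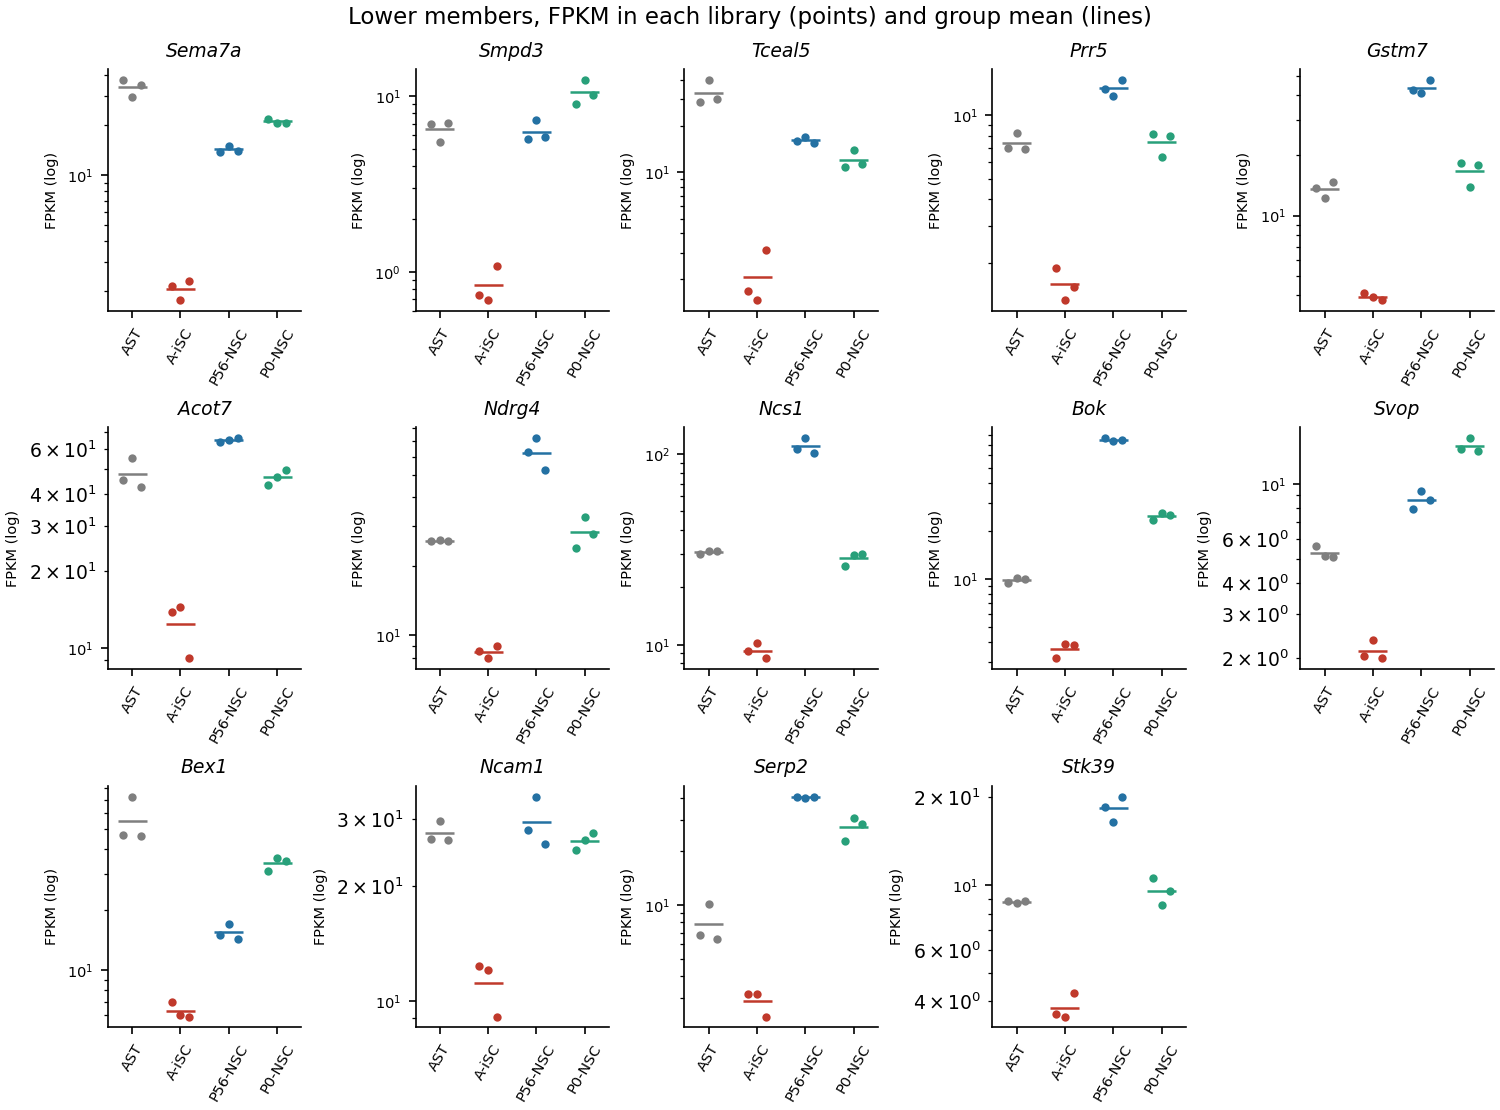
FPKM (log axis) of the 14 lower members in each of the 12 libraries, 1 point per library and a line at each group's mean. The 3 A-iSC points lie below the other 9 in every panel, by margins from 2.0 (Stk39) to 5.99 (Sema7a).

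The comparisons among the other 3 groups set no group against A-iSC, although the A-iSC libraries share in the estimate of the spread. The rule read the 9 libraries of the other 3 groups alike, by the single highest or lowest value. This bounds a member's level in all of them and names no group. The p-values of single genes below take no account of this selection. They are a description, as are the shares of members beside all genes. All genes were fitted together with limma on log2(FPKM + 1), and calls were made below 0.05 after Benjamini-Hochberg adjustment. Of the 238 higher members, 209 reached 1 FPKM in at least 3 of the other 9 libraries, and the remaining 29 passed the filter on low values through A-iSC. Between P56-NSC and AST, 75 of the 238 (31.5%) were higher in P56-NSC and 95 (39.9%) lower, beside 37.1% and 37% of all genes tested. Between P0-NSC and AST, 20 (8.4%) were higher in P0-NSC and 155 (65.1%) lower, beside 35.9% and 38.3%. Between P0-NSC and P56-NSC, 21 (8.82%) were higher in P0-NSC and 136 (57.1%) lower, beside 33.9% and 35.3%. Over the 209 alone the shares were 34.4% and 40.2%, 8.61% and 67.5%, and 9.09% and 61.7%, beside 37.6% and 37.4%, 36.5% and 38.7%, and 34.5% and 35.6% of the 15326 genes that pass in the same way.

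These shares depended on the scaling. By recovered reads in place of the authors' scaling, the 238 gave 58 higher and 112 lower in P56-NSC than in AST (24.4% and 47.1%), near the 28.6% and 46.4% of all genes. For P0-NSC against AST they gave 32 and 135 (13.4% and 56.7%), beside 43.6% and 30.2% of all genes. For P0-NSC against P56-NSC they gave 45 and 93 (18.9% and 39.1%), while all genes turned to 55.3% higher and 19.9% lower. Under both scalings, under quantile normalization and with limma-voom, more of the 238 were lower than higher in P0-NSC against either other group. In P56-NSC against AST their shares lay within 10 percentage points of those of all genes under the same 4 settings.

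**Figure D5:**
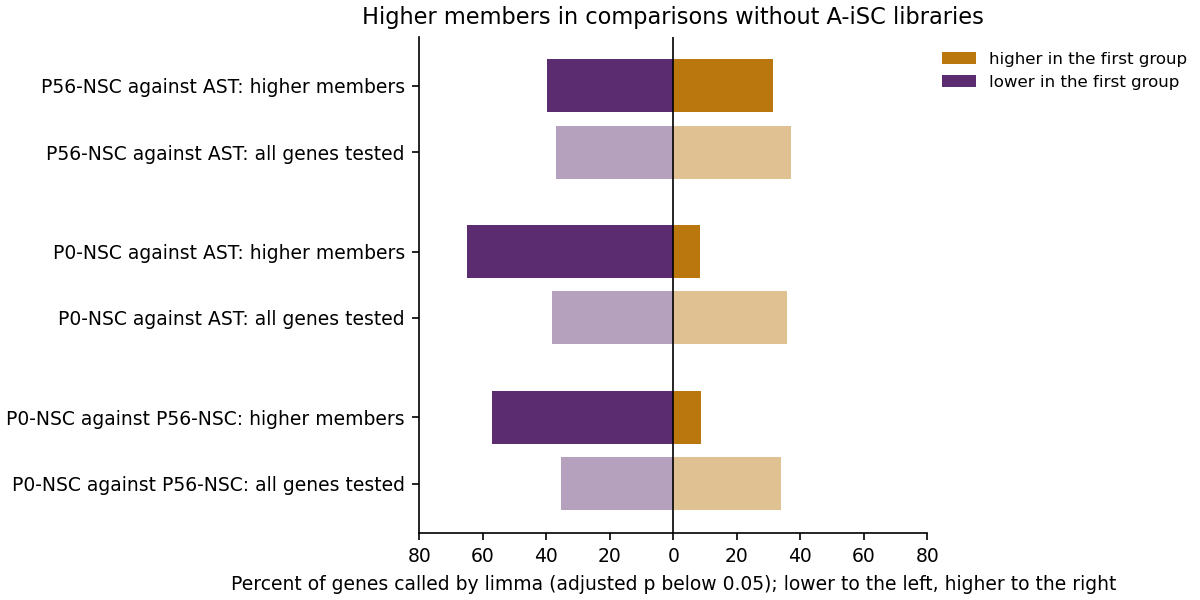
Percent of genes called by limma in the comparisons among AST, P56-NSC and P0-NSC, lower in the first-named group to the left and higher to the right, for the 238 higher members (dark bars) and all genes tested (pale bars). In P0-NSC against AST 65.1% of the members were lower, beside 38.3% of all genes, while in P56-NSC against AST 39.9% were lower, beside 37%.

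Individual members took different orders among these groups. Spp1 was lower in both progenitor groups than in AST (log2 difference -6.86 ± 0.18, limma adjusted p = 1.92e-11 for P56-NSC against AST, and -3.63 ± 0.18, limma adjusted p = 5.19e-09 for P0-NSC against AST). Lyz2 did the same, with -3.80 ± 0.30 and -4.48 ± 0.30 (limma adjusted p = 1.94e-07 and 5.21e-08), as did Gpnmb, with -3.36 and -3.45. Irf7 was lower in both as well, at -2.0 ± 0.31 and -2.07 ± 0.31 (limma adjusted p = 8.86e-05 and 7.09e-05). Ctsd formed a steady order from AST over P56-NSC to P0-NSC, at -1.66 for P56-NSC against AST and -1.28 for P0-NSC against P56-NSC. H2-D1 was lower in P56-NSC (-0.99 ± 0.17) and in P0-NSC (-1.93 ± 0.17) than in AST. Its difference between the progenitor groups was -0.95, a call lost when values were scaled by recovered reads.

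A second pattern put P56-NSC above AST. Gfap was higher in P56-NSC than in AST (log2 difference 2.78 ± 0.26, limma adjusted p = 9.00e-07) and lower in P0-NSC than in P56-NSC (-1.81 ± 0.26, limma adjusted p = 5.37e-05). C4b showed 3.56 ± 0.15 and -3.22 ± 0.15 for the same comparisons (limma adjusted p = 7.97e-10 and 4.01e-09). Apoe showed 2.69 ± 0.21 and -3.45 ± 0.21 (limma adjusted p = 1.64e-07 and 3.16e-08). Its difference between P0-NSC and AST (-0.75) was called, but lost its call under quantile normalization and under scaling by recovered reads. C1qa was higher in P56-NSC than in AST by 1.29 ± 0.15 and lower in P0-NSC than in AST (-1.04 ± 0.15; limma adjusted p = 5.74e-06 and 4.10e-05). Serpina3n differed by 0.98 ± 0.28 between P56-NSC and AST, a call lost under scaling by recovered reads (0.66).

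Over the 3 comparisons the most frequent pattern among higher members (45 genes) was lower in both progenitor groups than in AST with no call between the 2. That is 18.9% of them, beside 11.4% of all genes tested. Another 34 (14.3%, beside 7.0%) were lower in both and lower again in P0-NSC than in P56-NSC, and 32 (13.4%, beside 4.57%) were higher in P56-NSC than in AST and lower in P0-NSC than in both. No difference among the 3 groups was called for 23 (9.66%, beside 8.3%). Among the 14 lower members, 9 were higher and 3 lower in P56-NSC than in AST, 5 higher and 3 lower in P0-NSC than in AST, and 4 higher and 8 lower in P0-NSC than in P56-NSC. As shares these are 64.3% and 21.4%, 35.7% and 21.4%, and 28.6% and 57.1%, to be read beside the shares of all genes given above. P0-NSC against P56-NSC became 5 and 5 by recovered reads and with limma-voom, and P0-NSC against AST became 9 and 2 under quantile normalization. Bok was higher in P56-NSC than in AST by 2.82 ± 0.08 (limma adjusted p = 4.18e-11), and Ncs1 by 1.80 ± 0.10 (limma adjusted p = 6.07e-09). Sema7a was lower in P56-NSC than in AST (-1.18 ± 0.10, limma adjusted p = 4.02e-07) and so was Bex1 (-1.75 ± 0.16, limma adjusted p = 6.23e-07).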

How the data were processed

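The authors deposited FPKM per gene for the 12 libraries in a table of 55862 entries, of which the 441 without a gene name were left out. How reads were counted is not stated in the sources used here. Bowtie 0.12.2, mm8 and mm9 are named in the submitters' processing notes, but 99.5% of 55154 gene identifiers shared with GENCODE M21 had the same coordinates and strand, so coordinates are GRCm38. Deposited FPKM were multiplied by gene length and divided by a step fitted in each library (34.3 to 62.3), taken as the worth of 1 read. The results were whole reads, to within 0.01, in 100% of cases. Library totals implied by FPKM were 0.744 to 1.22 times the recovered reads, so the authors' values hold a scaling whose method is not given.

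The rule for members was applied to the deposited FPKM. The 3 comparisons among the groups other than A-iSC were fitted with limma 3.58.1 (R 4.3.3) on log2(FPKM + 1), 12 libraries in 1 fit, genes at 1 FPKM or more in 3 libraries (15747), adjusted by Benjamini-Hochberg over all of them. The fit was tested on simulated data. A pseudocount of 1 understates folds of low genes. Members and the 44 gene lists were chosen with earlier results of these data known. Named genes were the 20 higher and 15 lower members of widest margin, the 10 higher and 5 lower of highest level, up to 4 per list and direction, and the 3 nearest the threshold on each side. Fewer are given, some are not reported here, and others are marked. Promoters came from RefSeq (GRCm38.p6). Alternatives were other scalings, thresholds, filters, voom on recovered reads, a replicate block and left-out libraries. Tables and figures used Python 3.11.15, pandas 2.3.3, numpy 2.4.6 and matplotlib 3.10.9.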

Additional observations from a re-analysis of the deposited data

How the results depend on the processing

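The count of 238 higher genes became 151 at 3-fold, 370 and 153 with a level of 1 and 10 FPKM, and 381 and 517 against AST with P0-NSC or both progenitor groups only. It was 305 with values scaled by recovered reads (236 of the 238 among them) and 259 after quantile normalization (235), and 238 to 311 with single libraries left out. The 14 lower genes became 10 by recovered reads (8 of the 14 among them), 15 after quantile normalization (12), 33 at 1.5-fold, 5 at 3-fold, 56 and 8 at 1 and 10 FPKM, and 60, 80 and 334 against AST with P56-NSC, AST with P0-NSC, and both progenitor groups only. They numbered 14 to 24 without single libraries, 24 being without A-iSC 3, and 40 without AST 2 and A-iSC 3, an alternative chosen after seeing the data. Genes called higher than each other group (1108) became 660 with a 5 FPKM filter, 1728 by recovered reads and 1675 with limma-voom (854 to 1256 without single libraries). Those lower (602) became 297, 345 (voom) and 1121 without AST 2 and A-iSC 3 (482 to 899 without single libraries). The causes were not tested. Calls between the other groups numbered 11665 for P56-NSC against AST (10420 to 12229 without single libraries), 11687 for P0-NSC against AST (10565 to 12275) and 10895 for P0-NSC against P56-NSC (9655 to 11648). With a replicate block they were 11582, 11633 and 10846, and the A-iSC counts 1084 and 593. Pairing by number was not used in the main fit. Same-numbered libraries deviated together with correlations of -0.39 to 0.44, and no group pair was above 0.1 throughout. With 3 libraries per group these correlations cannot exclude a pairing. Scaling by recovered reads shifted the median gene by -0.43 to -0.36 (log2) in P56-NSC, 0.20 to 0.28 in P0-NSC and 0.14 to 0.20 in A-iSC. It moved the share of calls that were higher from 50.1% to 38.1%, 48.4% to 59.0% and 49.0% to 73.6% in the 3 comparisons. Of 1440 recomputed margins of 80 named members 7 fell under 2-fold and 0 reversed. Most of the 1440 came from leaving out libraries or groups, which can only widen a margin. Only scaling by recovered reads and quantile normalization could lower one, and all 7 came from them. Of 840 recomputed contrasts 7 lost their call and 0 reversed. Depth limits levels under about 0.1 FPKM, where a gene holds a few reads.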

Other observations

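On none of the 44 lists stood 138 of the 238 higher members. The genes named here were chosen after their values were seen, and no list was fixed for them, so they stand for no count or theme of the 138. The phagocyte NADPH oxidase, which makes superoxide, was represented by Cybb, which is on a list, and by its cytosolic subunits Ncf1, Ncf4 and Rac2. Ncf4 was at 19.5, 14.7 and 9.25 FPKM in A-iSC against 0.195 to 1.74 elsewhere, and Rac2 at 25.1, 19.9 and 12.4 against 1.4 to 2.78. Kinases and adaptors that act below Tyrobp and the Fc receptors were members too. Syk, the tyrosine kinase that binds their phosphorylated tails, was at 6.68, 5.58 and 5.75 FPKM against 0.667 to 1.43. Btk was at 7.59, 5.78 and 5.2 against 0.277 to 1.54 FPKM and Plcg2, the phospholipase that these kinases activate, at 12.6, 11.3 and 9.56 against 0.844 to 3.44. Ptpn6, the phosphatase SHP-1 that restrains this signalling, was at 32.5, 27.4 and 17.8 against 2.12 to 6.2 FPKM.

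Lcp1, the actin bundler L-plastin, was at 25.7, 22.2 and 21.1 FPKM in A-iSC, 4.12, 3.43 and 4.81 in AST, 1.91, 2.14 and 1.97 in P0-NSC and 4.04, 3.97 and 4.01 in P56-NSC. Dock2, which activates Rac, was at 6.47, 5.76 and 6.0 FPKM in A-iSC against 0.321 to 1.41, and Was, which starts actin branching, at 7.73, 6.08 and 5.37 against 0.606 to 2.17. Among transcription factors outside the lists, Cebpa was at 52.4, 39.1 and 38.5 against 7.01 to 18.2 FPKM and Irf5 at 16.3, 15.5 and 12.7 against 0.70 to 5.02. Metal transport had Slc11a1, the phagosomal metal exporter, at 25.8, 21.5 and 15.2 against 0.731 to 3.82 FPKM and Slc31a2, a copper transporter, at 22.2, 20.9 and 18.1 against 2.88 to 9.02. All these levels separate A-iSC from the other 9 libraries by the rule itself and carry no test.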
